A study of Mus musculus with 4 samples.

Results

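The proteins of the minor spliceosome were followed through mouse spermatocytes that carried or lacked TDRD6, a tudor-domain protein of the male germ line. The genes were chosen by name, namely Rnpc3, Zcrb1, Snrnp25, Snrnp35, Snrnp48, Pdcd7, Zmat5 and Zrsr1, and they were 8 of the 37718 gene rows in the deposited counts. Their gene counts, exon segments, splice junctions and introns were read in 2 Tdrd6+/- and 2 Tdrd6-/- samples. Each sample was RNA from hCD4+ cells of testes at 20 dpp (days postpartum), pooled from at least 4 mice, and both genotypes carried the marker used to isolate the cells. That marker is human CD4 made from the endogenous Tdrd6 promoter, so magnetic sorting (MACS) took the cells in which this promoter was active. The labels do not say that the samples of a genotype came from separate animals, so the p-values measure the spread between these samples. With 2 samples per genotype an exact permutation test of a single value cannot give a p below 0.33.

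The minor spliceosome removes U12-type introns, a small class of introns with strongly conserved letters at the 5′ splice site and at the branch point. The U11 and U12 snRNPs bind such an intron as a preformed pair, the U11/U12 di-snRNP, in which U11 reads the 5′ splice site and U12 the branch point. The rest of the pre-mRNA introns are handled by the major spliceosome, and both machines share the Sm core and the SF3b proteins. The study was about spliceosome maturation, a process in which PRMT5 methylates Sm proteins of snRNPs of both kinds. All members but Zrsr1 are protein components of the U11/U12 di-snRNP. Rnpc3 binds the U12 snRNA and also contacts Pdcd7, which is bound to U11, and so bridges the pair. Snrnp48 contacts the 5′ splice site. Snrnp35 is a U11 protein that resembles a U1 snRNP protein, Snrnp25 is another U11 protein, Zcrb1 has an RNA recognition motif and a zinc knuckle, and Zmat5 is a zinc finger protein. Zrsr1 is an intronless, imprinted relative of Zrsr2, the protein that recognises the 3′ splice site of U12-type introns.

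Rnpc3 and Snrnp48 carry in their own transcripts a pair of letters like the U12-type 5′ splice site, known as a splicing enhancer that U11 binds, and these are shown because the intron and junction counts around them are described below. The letters searched were ATATCCTT and GTATCCTT on the transcript strand of all annotated transcripts, some of which keep introns, and capitals mark the matches. The sequences are from the GENCODE M21 transcripts, build mm10.
Rnpc3, chr3:113607237-113607256, minus strand: GTATCCTTtcttGTATCCTT
Snrnp48, chr13:38214668-38214693, plus strand: GTATCCTTtttgcaaatgATATCCTT
The starts of the copies were 12 bases apart in Rnpc3 and 18 bases apart in Snrnp48. In Rnpc3 the pair began 43 bases into a terminal exon. In Snrnp48 it lay in intron 4 (13:38211142-38216324), directly after a 63-base exon (13:38214605-38214667) that later-annotated transcripts have and the deposited numbering lacks. At least 1 match was found in the transcripts of 3417 of 55450 genes, or 6.16%, and a pair within 30 bases in 4 genes, which besides Rnpc3 and Snrnp48 were Slc8a1 and Vmn2r17. Zrsr1 held 1 match. A match of letters is a description and not a measured binding site.

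Across the 4 samples 43778449 to 47221554 fragments were tallied, with 26454326 to 31388750 in gene counts and 9603669 to 13937818 in introns. Introns took 29.5% to 34.5% of the intron plus gene counts in Tdrd6+/- and 23.4% to 29.8% in Tdrd6-/-, and the ranges overlapped slightly. The targeted gene followed the labels, with Tdrd6 counts of 33220 and 39322 in Tdrd6+/- and 359 and 400 in Tdrd6-/-. The 8 primary spermatocyte markers, Tdrd6 among them, summed to 4928 to 5024 CPM in Tdrd6+/- and 3817 to 3934 CPM in Tdrd6-/-, and without Tdrd6 the other 7 summed to 3584 to 3768 and 3805 to 3921 CPM. These 7 did not move alike. Piwil1 had 28944 and 25857 counts in Tdrd6+/- against 23151 and 24496, a log2 change of -0.44 (adjusted p 0.0773 in edgeR). Sycp3 and Hspa2 had log2 changes of 0.15 and 0.08 and were not called. Some marker sets of other cells summed higher in both Tdrd6-/- samples, with 6 spermatid markers at 9.11 to 12.5 against 20.1 to 22.5 CPM, 5 Sertoli cell markers at 64.8 to 66.2 against 82.9 to 86.8 CPM, and 6 spermatogonial markers at 21.5 to 23.7 against 28.2 to 31.8 CPM. The 5 Leydig cell markers summed to 17.0 to 20.2 against 20.2 to 22.9 CPM and the 3 blood cell markers to 0.957 to 1.32 against 1.02 to 1.31 CPM. The rows of the Leydig cell marker Insl3 and the primary spermatocyte marker Spag6 are each shared with another gene. The Leydig and spermatocyte sums therefore include fragments of those genes. No marker row was at 0, and the part of these cells in the results below was not tested. In sorted bulk cells, fewer cells of a type and less RNA per cell cannot be told apart.

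In mm10 the members lie on 6 chromosomes. Rnpc3 is at 3:113605067-113630149 and Zcrb1 at 15:93386097-93398334, both on the minus strand. The others are on the plus strand, with Snrnp25 at 11:32205415-32208984, Snrnp35 at 5:124483134-124491124, Snrnp48 at 13:38204945-38227665, Pdcd7 at 9:65346104-65359643, Zmat5 at 11:4704678-4737669 and the single exon of Zrsr1 at 11:22972005-22976496. They had 46 introns, 123 exon segments, 69 annotated junctions and 5 unannotated junctions in the counts, and the exon segments and junctions include those of Amy1 in the shared Rnpc3 row.

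The members were all detected and spanned a 29.8-fold range of levels per length of exon. That length covers all annotated exon sequence, also long segments with few fragments. Zcrb1 segment 18 made up 1518 of 3074 bases with 68 to 112 counts, and Rnpc3 segments 25 and 45 made up 1040 and 1267 of 6627 bases. The values and places of these genes in the order therefore depend on the annotation. As CPM (gene counts scaled to the depth of the sample) per kb of exon over the 4 samples, Snrnp35 was highest at 37.7 ± 2.66 (SD, n = 4), followed by Pdcd7 at 32.9 ± 1.26, Snrnp25 at 23.2 ± 2.95 and Zcrb1 at 14.6 ± 0.589. Zmat5 at 8.42 ± 0.397 and Snrnp48 at 7.86 ± 0.369 came next, and theirs was the only neighbouring pair whose ranges overlapped. Rnpc3 at 5.80 ± 0.537 and Zrsr1 at 1.26 ± 0.234 were lowest. The Rnpc3 row is shared with Amy1, an amylase gene downstream on the same strand, so its value includes some Amy1 fragments. Of the fragments over annotated junctions in this row, 91.8% lay in Rnpc3, 7.73% in Amy1 and 0.451% joined them.

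**Figure D1:**
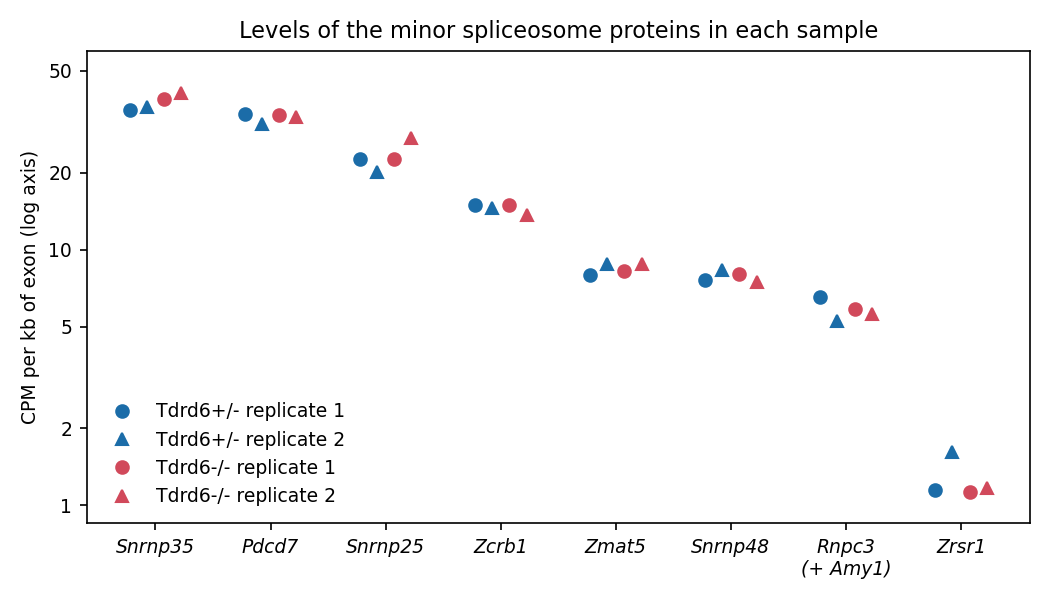
Level of each member in each sample, as CPM per kb of exon on a log axis, with 1 point per sample and genes ordered from highest to lowest. Snrnp35 lies near 37.7 and Zrsr1 near 1.26, and the samples of both genotypes lie close together for each gene.

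No member was called as different between the genotypes in gene counts. Of the 8, 0 were called at a false discovery rate of 0.1 (edgeR quasi-likelihood test), 0 had an unadjusted p under 0.05 and 0 were called by DESeq2. Over all 16555 genes tested, 4.80% were called. Of the members 4 lay above and 4 below 0, with a median log2 change of -0.01 beside 0.01 over all genes. The CPM of the genotypes did not overlap for 1 of 8 members, Snrnp35, while this was so for 43.5% of all genes.

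Among the members, Snrnp25 and Snrnp35 had the highest estimates with all 4 samples. Snrnp35 had 1238 and 1352 counts in Tdrd6+/- and 1650 and 1766 in Tdrd6-/-, which is 47.3 and 48.5 against 52.2 and 55.2 CPM. Both Tdrd6-/- samples were above both Tdrd6+/- samples. The log2 change was 0.16 (SE 0.144), with a 95% confidence interval from -0.13 to 0.46 and an adjusted p of 0.696 in edgeR. Snrnp25 had 23.6 and 21.0 CPM in Tdrd6+/- and 23.5 and 28.3 CPM in Tdrd6-/-, so that one Tdrd6-/- sample was high and the other within the Tdrd6+/- range. Its log2 change of 0.22 (SE 0.173, interval -0.14 to 0.58) had an adjusted p of 0.652 in edgeR. It was 0.087 without Tdrd6-/- replicate 2, where Snrnp35 had 0.13, and 0.14 to 0.35 when any other sample was left out, highest without Tdrd6-/- replicate 1.

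Snrnp48 and Pdcd7 had similar levels in all samples. Snrnp48 counts were 359 and 415 in Tdrd6+/- and 455 and 430 in Tdrd6-/-, which after scaling for depth was 13.7 and 14.9 against 14.4 and 13.4 CPM. The log2 change was -0.04, with an interval from -0.43 to 0.35. Pdcd7 had 78.4 ± 4.76 CPM (SD, n = 2) in Tdrd6+/- and 80.6 ± 0.551 CPM in Tdrd6-/-, a log2 change of 0.04 with an interval from -0.24 to 0.32. This interval was the narrowest among the members, whose counts were also the largest at 2089 to 2567.

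Rnpc3, the bridge to U12, and the RNA-binding protein Zcrb1 showed log2 changes close to 0. Rnpc3 with Amy1 had 43.2 and 34.7 CPM in Tdrd6+/- and 38.7 and 37.0 CPM in Tdrd6-/-, so that the Tdrd6+/- samples lay at either side of the Tdrd6-/- samples. The interval was from -0.37 to 0.29. Zcrb1 had 45.9 and 44.8 CPM in Tdrd6+/- and 46.1 and 42.1 CPM in Tdrd6-/-, with an interval from -0.35 to 0.27.

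Zmat5 and Zrsr1 rested on the fewest counts. Zmat5 had 9.93 and 10.9 CPM in Tdrd6+/- and 10.3 and 10.9 CPM in Tdrd6-/-, and its interval was from -0.40 to 0.45. Zrsr1 had 135 and 202 counts in Tdrd6+/- and 160 and 168 in Tdrd6-/-, or 5.16 and 7.25 against 5.06 and 5.25 CPM. The lower Tdrd6+/- sample lay between the Tdrd6-/- samples, and the log2 change of -0.27 (SE 0.246, interval -0.78 to 0.24) had an adjusted p of 0.712 in edgeR. Zrsr1 lies within Commd1 on the other strand, whose row held 15351 fragments over the 4 samples, and the libraries were made with a directional kit.

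The rest of the pathway gave no call in gene counts either. Of 8 further minor spliceosome proteins, namely Zrsr2, Scnm1, Cenatac, Rbm48, Armc7, Cript, Ppil2 and Txnl4b, 0 were called in edgeR and 0 had an unadjusted p under 0.05, with 6 above and 2 below 0, a range of -0.03 to 0.47, a median of 0.18 and a smallest adjusted p of 0.440. The CPM of 4 of these 8 were higher in both Tdrd6-/- samples, while 20.1% of all genes were. Zrsr2, the intron-containing relative of Zrsr1, had 59 and 78 counts in Tdrd6+/- and 139 and 83 in Tdrd6-/-, and its log2 change of 0.47 (SE 0.303) had an adjusted p of 0.551 in edgeR. The U11 and U12 snRNAs were nearly unread in these libraries. Rnu11 had 15, 8, 14 and 21 counts and Rnu12 21, 19, 16 and 25 counts in Tdrd6+/- 1 and 2 and Tdrd6-/- 1 and 2, all under 1 CPM, with log2 changes of 0.36 and -0.20 and adjusted p of 0.841 and 0.902 in edgeR.

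All members but Zrsr1 have introns, 46 in all, and none was called by its summed intron counts either. Intron counts come from RNA that still holds introns, and a change of all introns alike is not seen by tests of usage within a gene. Of the 7, 0 were called in edgeR and 0 had an unadjusted p under 0.05 while 1.42% of 15025 genes were called. DESeq2 called 0 of the 5 members it gave an adjusted p, and gave none to Snrnp25 and Zmat5. The median log2 change was -0.00 beside 0.07 over all genes.

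**Figure D2:**
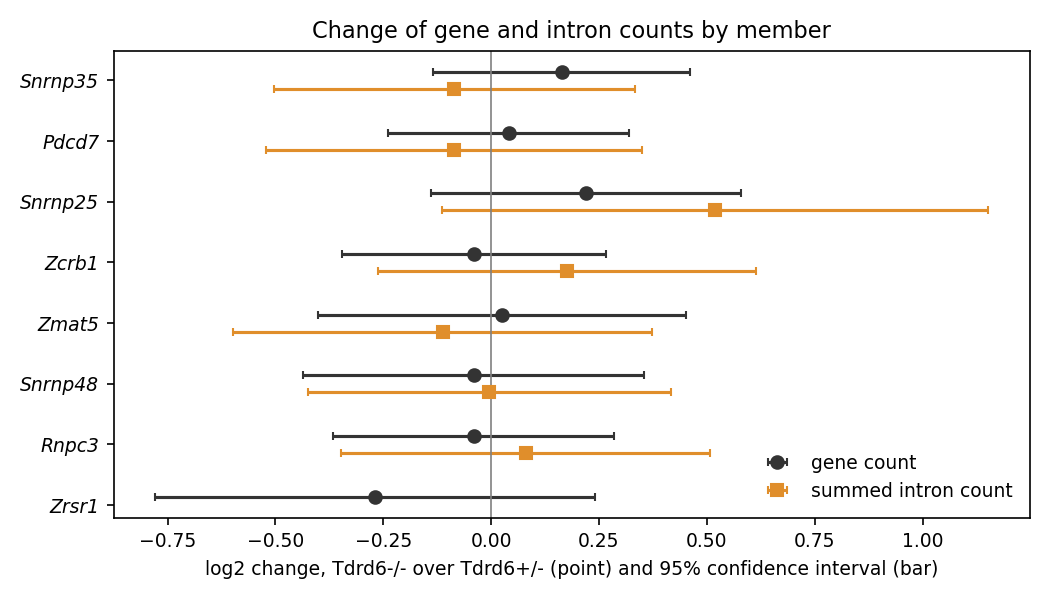
Log2 change of gene counts and of summed intron counts for each member, Tdrd6-/- over Tdrd6+/-, with points for the estimate and bars for the 95% confidence interval of the edgeR fit. Every bar crosses 0, and the widest is the intron count of Snrnp25, from -0.11 to 1.15.

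Snrnp48 and Snrnp35 had the most intron fragments among the members. Snrnp48 had 906 and 783 intron counts in Tdrd6+/- and 816 and 776 in Tdrd6-/-, a log2 change of -0.00 with an interval from -0.43 to 0.42. Snrnp35 had 1063 and 930 against 958 and 829, a log2 change of -0.08 with an interval from -0.50 to 0.33. In both genes the samples of the genotypes overlapped after scaling.

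The remaining genes had fewer counts. Rnpc3 had 707 and 577 intron counts in Tdrd6+/- and 748 and 555 in Tdrd6-/-. Of its 2587 intron counts, 724 lay in intron 1 (3:113577831-113605066), the stretch between Amy1 and Rnpc3 outside the gene's own span. Zcrb1 had 483 and 443 against 599 and 411. Pdcd7 had 544 and 523 against 575 and 396, and Zmat5 348 and 235 against 284 and 230. After scaling, Zcrb1 was higher in both Tdrd6-/- samples and Pdcd7 lower in both, which was the case for 22.1% and 21.4% of all genes. Snrnp25, with 79 and 59 counts against 74 and 109, had the largest estimate, a log2 change of 0.52 (SE 0.321), and an adjusted p of 0.501 in edgeR. Without Tdrd6-/- replicate 1 it was 0.93 with an adjusted p of 0.0815, and without Tdrd6-/- replicate 2 it was -0.03, so a single sample decided the value.

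The intron count changes depended on the scaling. When introns were scaled by gene counts in place of intron counts, the median of all genes moved by -0.29 to -0.23, and 1 member lay above and 6 below 0 with a median of -0.33. The sign turned in Rnpc3 (-0.22) and Zcrb1 (-0.11), and the other 5 members kept theirs. The ratio of intron to gene count was taken without scaling, so it also moves with the intron share of the whole sample. For Snrnp48 this ratio was 2.52 and 1.89 in Tdrd6+/- and 1.79 and 1.81 in Tdrd6-/-. It was 0.859 and 0.688 against 0.581 and 0.469 for Snrnp35 and for Pdcd7 the means were 0.252 ± 0.00272 and 0.189 ± 0.0497 (SD, n = 2). In these 3 of 7 members the ratio was lower in both Tdrd6-/- samples, which was true of 38.1% of all 12354 genes, and in 0 members was it higher in both, beside 4.55% of all genes. It overlapped in Rnpc3, Zcrb1, Snrnp25 and Zmat5. The intron share of the whole sample, given above, was lowest in a Tdrd6-/- sample too, and its part in the ratio was not tested.

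Snrnp48 had the most intron counts for its gene counts among the members. This measure was not corrected for the length of introns or exons, so long introns raise it. Its ratio of intron to gene count over the 4 samples was 1.98, above 85.5% of 12355 genes, whose median was 0.487. Zmat5 had 0.885, Snrnp35 0.629, Rnpc3 0.574 with that stretch included, Zcrb1 0.368 and Pdcd7 0.218. Snrnp25 was lowest at 0.113, above 11.2% of genes.

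Within Snrnp48 the long introns 4 and 7 held most of the intron fragments, and density varied from intron to intron. Intron 7 (13:38217496-38220686) held 377 fragments per kb over the 4 samples and intron 4 held 228, followed by intron 8 at 186, intron 2 at 134 and intron 6 at 122. Intron 1 held 77.7, intron 9 48.7 and intron 3 28.8 fragments per kb. Intron 7 took 36.9% and intron 4 took 36.3% of all intron counts of the gene. Intron 4, where the motif pair printed above lies, had 355, 269, 266 and 294 counts in Tdrd6+/- 1 and 2 and Tdrd6-/- 1 and 2. Its share of the intron counts was 36.8% ± 3.41 (SD, n = 2) in Tdrd6+/- and 35.2% ± 3.74 in Tdrd6-/-, and the groups overlapped.

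The junction that spans intron 4 had the lowest total over the 4 samples of the annotated junctions with any fragment. It had 20, 15, 23 and 12 fragments, 70 in all, while the 7 other such junctions had 86 to 236 fragments and a median of 156, and the annotated junctions 19 and 21 had 0. The next lowest, junction 24, had 14, 16, 28 and 28 fragments, so that in Tdrd6+/- its count was close to that over intron 4. A pair of unannotated junctions of the gene, whose positions the counts do not give, had 79 and 40 fragments in all, or 22, 20, 15 and 22 for the first and 11, 7, 9 and 13 for the second. Both were seen in every sample of both genotypes. That they join the later-annotated exon of intron 4 cannot be read from these counts.

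**Figure D3:**
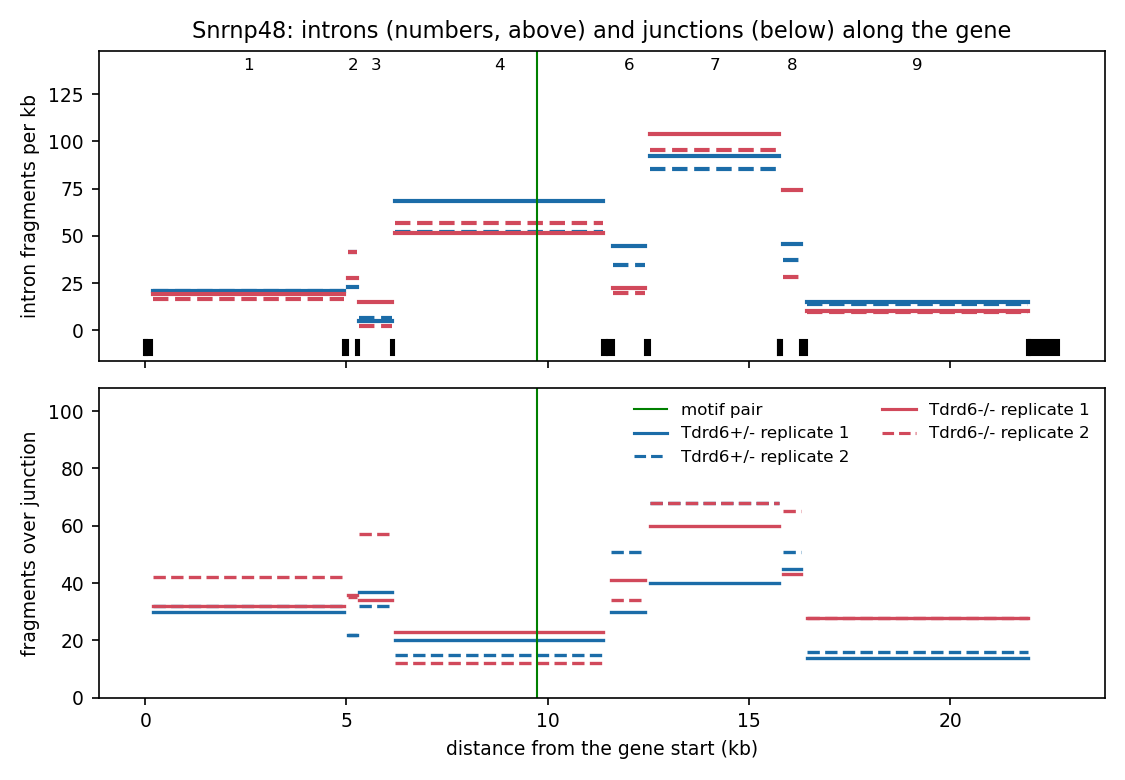
Fragments per kb of each Snrnp48 intron (above) and fragments over each annotated junction (below) by distance from the gene start in kb, with solid and dashed lines for replicates 1 and 2 of each genotype and a green line at the motif pair. Intron 7 is the highest in all 4 samples at 85.6 to 104 fragments per kb, intron 8 is above intron 4 in Tdrd6-/- 1, and the junction over intron 4 has 12 to 23 fragments.

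Usage compares one feature with the rest of its gene, and it was tested by the exon and intron usage models fitted with DESeq2. In introns, 0 of the 13 member introns that passed the filter on low counts were called and 1 of 46 had an unadjusted p under 0.05, beside 1.94% called of 28903 introns and 4.33% under 0.05 of 128748. The edgeR usage test called 0 as well, but it called only 2 introns in all, so its 0 decides little about the members. That 1 intron was Snrnp48 intron 7, with 294 and 273 counts in Tdrd6+/- and 331 and 305 in Tdrd6-/-, or 32.5% and 34.9% against 40.6% and 39.3% of the gene's intron counts. Both Tdrd6-/- samples were higher, a separation that the choice by p favours. The log2 change of usage was 0.39 (SE 0.194), with an unadjusted p of 0.0436 and an adjusted p of 0.451 in DESeq2. The edgeR usage test gave a log2 change of 0.24.

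The smallest p in the other genes was further from the threshold. Zcrb1 intron 1 had 67 and 91 counts against 119 and 110, a log2 change of usage of 0.54 (SE 0.298) and an adjusted p of 0.533 in DESeq2. Leaving out Tdrd6+/- replicate 1 gave 0.21 and Tdrd6-/- replicate 2 gave 0.27, while leaving out Tdrd6+/- replicate 2 gave 0.89 and Tdrd6-/- replicate 1 gave 0.83. Snrnp35 intron 2 (5:124483654-124490122) held 98.3% of the gene's intron counts, with 1048 and 917 against 939 and 812, a log2 change of -0.53 (SE 0.398) and an adjusted p of 0.724 in DESeq2. Since the gene has 2 introns, this value was set against the few counts of the other one, and it was -0.25 with exonic counts as the reference and -0.0093 in the edgeR usage test. Pdcd7 intron 1 had 289 and 302 against 301 and 197, a log2 change of -0.25 (SE 0.215) and an adjusted p of 0.786 in DESeq2, with -0.12 in the edgeR usage test and -0.39 to -0.12 with a sample left out. Rnpc3 intron 3 had 36 and 31 against 31 and 13 counts, Snrnp25 intron 3 had 17 and 12 against 21 and 39, and Zmat5 intron 4 had 7 and 8 against 4 and 8. These last 3 fell below the filter on low counts, with log2 changes of -0.71 (SE 0.453), 0.85 (SE 0.516) and -0.17 (SE 0.849).

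In exon segments and junctions, 0 of the 90 features that passed the filter were called, out of 197 in the 8 genes and 179 with at least 10 counts. Over all features 0.221% of 147710 were called, and with merged rows such as Rnpc3 kept 0.266% of 152775. An unadjusted p under 0.05 was reached by 9 of 179, or 5.03%, of which 6 were higher and 3 lower in Tdrd6-/-, beside 2.95% of all features, or 3.05% with merged rows kept. In the edgeR usage test, which left out merged rows and so Rnpc3, 0 were called, beside 81 exon segments and junctions in all. Zrsr1, with its single exon, has no usage.

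**Figure D4:**
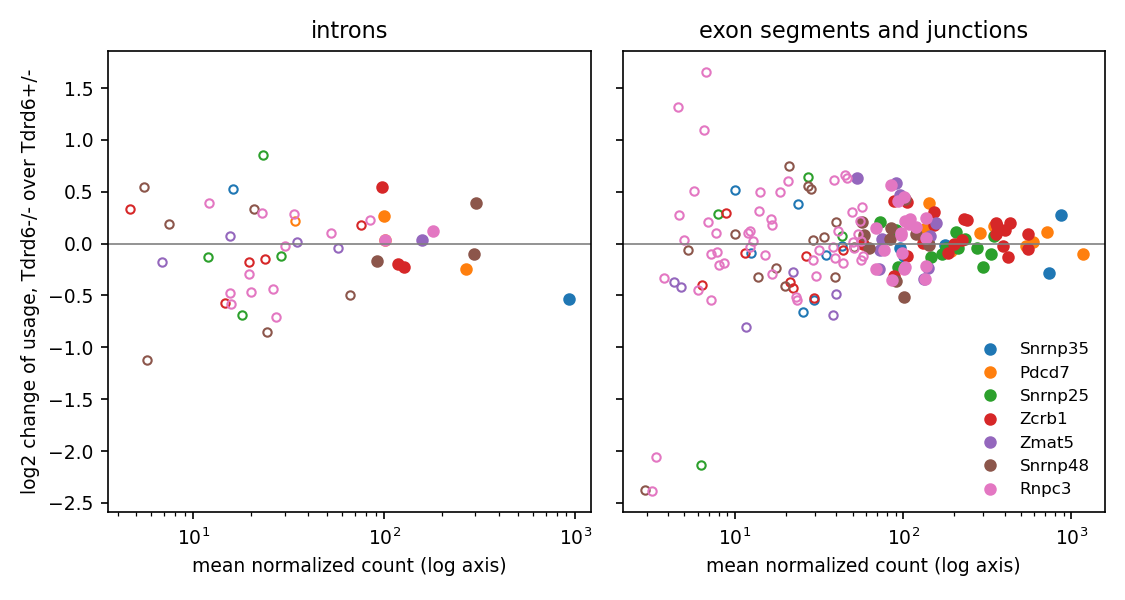
Log2 change of usage, Tdrd6-/- over Tdrd6+/-, against the mean normalized count on a log axis, for the introns (left) and the exon segments and junctions (right) of the members, in 1 colour per gene. Filled points passed the filter on low counts and open points did not, and the spread about 0 widens to the left, where counts are low.

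The exon segment or junction with the smallest p in each gene did not pass the correction. Snrnp35 segment 5 (5:124490123-124490490), the start of the exon behind intron 2, took 53.3% and 50.7% of the gene counts in Tdrd6+/- and 46.8% and 47.3% in Tdrd6-/-, a log2 change of -0.29 (SE 0.129, unadjusted p 0.0268, adjusted p 0.994 in DESeq2) and of -0.12 in the edgeR usage test. Snrnp48 segment 6 (13:38216325-38216436), the exon directly after intron 4, took 28.7% and 27.0% against 20.2% and 22.3%, a log2 change of -0.51 (SE 0.245, unadjusted p 0.0364, adjusted p 1 in DESeq2). Both were lower in both Tdrd6-/- samples, a separation that the choice by smallest p favours.

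The features of the other genes, apart from Snrnp25, had positive estimates. Zmat5 segment 9 (11:4737332-4737395) took 26.2% and 24.3% in Tdrd6+/- and 32.0% and 35.1% in Tdrd6-/- (log2 change 0.59, SE 0.264, adjusted p 0.989 in DESeq2). Rnpc3 segment 36 (3:113616748-113616801) took 6.19% and 6.20% against 8.33% and 9.54% (log2 change 0.57, SE 0.257, adjusted p 0.929 in DESeq2). Pdcd7 junction 8 had 115 and 112 fragments against 173 and 182 (log2 change 0.39, SE 0.197, adjusted p 1 in DESeq2). Zcrb1 junction 33 had 83 and 90 against 137 and 119 (log2 change 0.40, SE 0.225, adjusted p 1 in DESeq2). In these 4 features both Tdrd6-/- samples lay above both Tdrd6+/- samples, which the choice by smallest p favours here too. The share of all features separated in this way was not computed. Snrnp25 segment 5 (11:32206762-32206959) had 9 and 9 counts against 1 and 5 and fell below the filter.

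The terminal exon of Rnpc3 was examined because its motif pair lies there, a choice made after the counts were seen. Junction 64 (3:113607300-113608339) leads into the exon with the motifs and had 28 and 23 fragments in Tdrd6+/- and 14 and 27 in Tdrd6-/-. Junction 63 (3:113605648-113608339) leads past it to the farther exon and had 12 and 11 against 14 and 19. The near exon was taken in 70.0% and 67.6% of these fragments in Tdrd6+/- and in a smaller share in both Tdrd6-/- samples. The 95% Wilson intervals, which cover counting error only, were 54.6% to 81.9%, 50.8% to 80.9%, 32.6% to 67.4% and 44.3% to 71.7%, and they overlap. The means were 68.8% ± 1.66 and 54.3% ± 6.15 (SD, n = 2). The two-sided exact permutation test gave a p of 0.33. It gives this value whenever 2 samples lie apart from 2 others, so it cannot decide here. The segment that holds the motifs had 153, 119, 146 and 127 counts, a log2 change of usage of -0.22 (SE 0.211) and an unadjusted p of 0.301.

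Some substrates of the minor spliceosome were looked at through junctions over introns with U12-type ends, a test added after the files were seen. An intron qualified with a start reading ATATCCT, or in its place a start reading GTATCCT, and with branch point letters in its last 50 bases, which were CCTTAAC, or in their place the letters CCTTGAC, or else the letters CCTTAAT. Of 183474 placed junctions 9488 had an intron whose sequence could be read from another annotated transcript. Of these 54 had the start letters and 22, in 19 genes, had the branch point letters too. Introns that another transcript holds are not a random draw of the U12-type introns. The shares given beside them cover all junctions and not only the readable ones. The ends of the introns with the smallest p are shown, first 12 and last 30 bases, with the matched letters in capitals.
Exosc5, first bases: GTATCCTttccc
Exosc5, last bases: cactctCCTTAACcagtctgtgatgcccag
Lsm8, first bases: GTATCCTccggc
Lsm8, last bases: aagaaatacgttCCTTGACtcggttctcag
Pqlc2, first bases: GTATCCTtcaaa
Pqlc2, last bases: gtggctgcagtaCCTTAACagtgtcctcag
Of the 19 junctions with enough counts none was called. Of the 11 that passed the filter 0 were called by DESeq2, beside 0.106% of 48884 junctions, and 0 of 19 had an unadjusted p under 0.05, beside 2.35% of 113259 junctions. The edgeR usage test called 0 of the 19, and 11 of 113254 junctions in all. The log2 change of usage was below 0 in 10 and above 0 in 9, with a median of -0.03 beside 0.04 over 113259 junctions, of which 43.4% were below 0. In the edgeR usage test 13 were below and 6 above 0, with a median of -0.02 beside 0.03, and 44.9% of all junctions were below 0. With a sample left out, 10 to 13 were below 0 and the median ran from -0.06 to -0.01.

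Exosc5, a subunit of the RNA exosome, had the smallest p. Its junction 9 (7:25664449-25665420) had 796, 868, 899 and 1020 fragments, which was 19.0% and 17.9% of the gene counts in Tdrd6+/- and 16.5% and 16.2% in Tdrd6-/-. The share was lower in both Tdrd6-/- samples, which the choice by smallest p favours. Its log2 change of usage was -0.21 (SE 0.110, unadjusted p 0.0543, adjusted p 1 in DESeq2). Lsm8, part of a complex that binds the U6 snRNA, had 130 and 94 against 165 and 193 fragments over junction 10, a log2 change of 0.21 (SE 0.206). Pqlc2, a lysosomal amino acid transporter, had 0 and 5 against 5 and 9 over junction 24 and fell below the filter. Some of the introns under these junctions had intron counts of their own, all below the filter on low counts. Log2 changes of intron usage were 0.71 (SE 0.376) in E2f6, -0.34 (SE 0.310) in Exosc5 and 0.48 (SE 1.05) in Nr2c2ap. They were 0.28 (SE 0.937) in Pola2, 0.07 (SE 0.589) in Mau2 and 0.06 (SE 0.556) in Spc24. E2f6 had 49 and 40 against 62 and 54 intron counts.

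**Figure D5:**
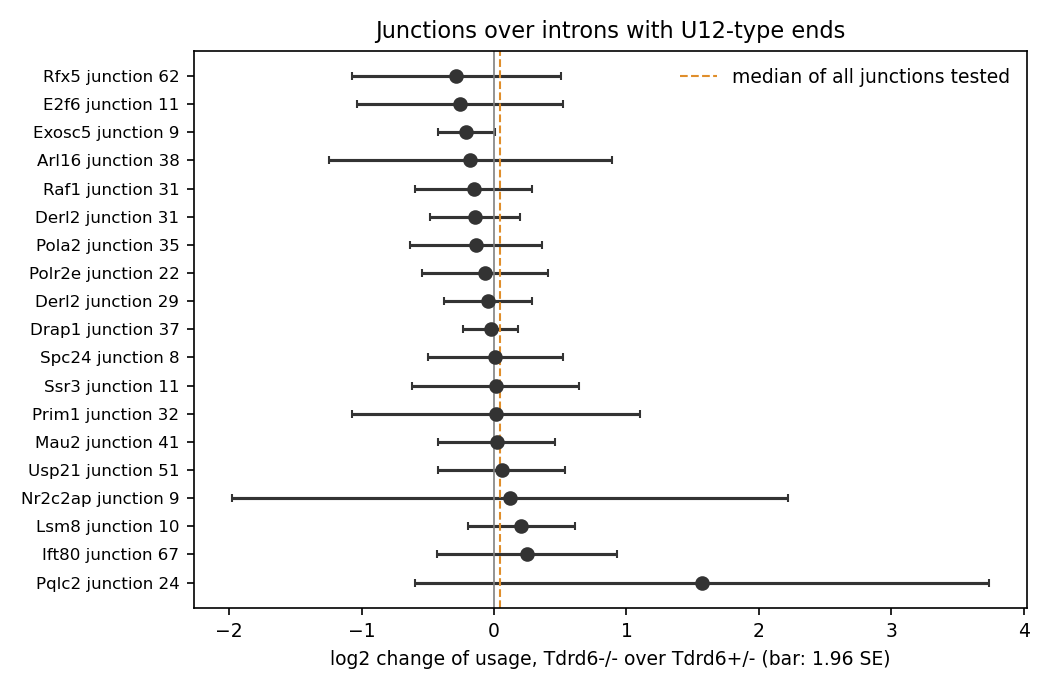
Log2 change of usage for the 19 junctions over introns with U12-type ends, Tdrd6-/- over Tdrd6+/-, 1 point per junction with a bar from its standard error, the grey line at 0 and the dashed line at the median of all junctions tested. The points lie on both sides of 0, with a median of -0.03, and the wide bars belong to junctions with few fragments.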

How the data were processed

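RNA of MACS-isolated hCD4+ testis cells was depleted of rRNA, made into libraries with a directional kit and sequenced by the authors, who processed the runs with bcl2fastq 1.8.4 and aligned to mm10 with GSNAP and Ensembl annotation. They deposited raw counts per gene, exon segment, annotated and unannotated junction, and per intron, without normalization; the counting program is not given in the sources used here. The members, lists and tests were chosen with earlier results of these data known. Gene and intron counts were tested with edgeR 4.0.16 (TMM, quasi-likelihood, filterByExpr) in R 4.3.3. Usage was tested with the DEXSeq-type and JunctionSeq-type models that the study used, fitted with DESeq2 1.42.0 as likelihood ratio tests on features with at least 10 counts, since those packages were not used here. Independent filtering kept introns with a mean normalized count over 85.4, exon segments and junctions over 53.4, or over 59.5 with merged rows. Adjustment was by Benjamini-Hochberg over all features and the false discovery rate was 0.1. At the same rate the study reported more introns and more exon and junction events than these fits called. Merged rows were left out of the exon and junction fit, except for Rnpc3, read from a fit with the 940 merged rows kept. The fits were tested on simulated data with large changes only, so that check does not bear on changes as small as those of most members.

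Positions come from GENCODE M21 transcripts, by matching the order of features; numbers of segments and junctions matched in 32669 of 37718 gene rows and intron numbers in 22582 of 24963 genes, and 99.7% of 60848 junctions did not exceed their flanking segments. Unannotated junctions were not placed. Named are all members, for each member the intron and the exon segment or junction with the smallest unadjusted p, Zrsr2, the minor snRNAs (Rnu4atac and Rnu6atac were not matched) and the 3 U12-type junctions with the smallest p. Named too are the U12-type introns whose own intron counts could be placed. The deviations of same-numbered samples from the mean of their genotype correlated at -0.12 over 12347 genes and 0.05 over 44784 introns. The numbers were therefore not taken as pairs. Alternatives were the scaling, the filter, the tool, the replicate block, the reference of the usage test and leaving out each sample. Exact tests and intervals used scipy 1.17.1.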

Additional observations from a re-analysis of the deposited data

How the results depend on the processing

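No member was called under the alternatives run, apart from Snrnp25 in intronic counts without Tdrd6-/- replicate 1, so the number of members called over the samples left out ranged from 0 to 1. The number of calls over all genes was less stable, and the cause was not tested. Genes called by expression were 794, 75 without a filter on low counts and 257 to 1064 with a sample left out. Genes called by intronic counts were 214 (12.1% higher), 3 with scaling by gene counts, 396 with DESeq2 (0.758% higher) and 4 to 951 with a sample left out. Introns called by usage were 561, 2 with edgeR, 1262 with exonic counts as reference, 327 at a false discovery rate of 0.05, 220 without independent filtering and 4 to 1175 with a sample left out. Exon segments and junctions called were 326, 81 with edgeR and 51 to 763 with a sample left out. Leaving out Tdrd6+/- replicate 1 gave 4 genes by intronic counts, 4 introns and 65 exon segments and junctions, and Tdrd6+/- replicate 2 gave 333 introns and 763 exon segments and junctions. Leaving out Tdrd6-/- replicate 1 gave 951 genes by intronic counts, 1175 introns and 164 exon segments and junctions, and Tdrd6-/- replicate 2 gave 257 genes by expression, 79 by intronic counts, 12 introns and 51 exon segments and junctions. The replicate block gave 1046 genes, 189 genes by intronic counts, 882 introns and 303 exon segments and junctions, and it changed no call of a member. The crossed pairing, added after seeing the data, called 1175 genes and 278 exon segments and junctions.

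Several values turned sign, Snrnp25 in intron counts and Zrsr1 in gene counts among them, and no value of opposite sign to the reported one was called. With a sample left out, gene count changes ran from -0.19 to 0.14 (Rnpc3), -0.11 to 0.033 (Zcrb1), -0.090 to 0.023 (Snrnp48), -0.018 to 0.12 (Pdcd7), -0.029 to 0.098 (Zmat5) and -0.48 to 0.0020 (Zrsr1). Intron count changes ran from -0.043 to 0.19 (Rnpc3), -0.031 to 0.93 (Snrnp25), -0.19 to 0.0059 (Snrnp35), -0.18 to 0.15 (Snrnp48) and -0.35 to 0.15 (Zmat5), and usage of Zmat5 intron 4 from -0.91 to 0.42. With scaling by gene counts Rnpc3 was -0.22 and Zcrb1 -0.11 in intron counts. Of 218 alternatives for single values 198 kept direction and side of the threshold. The test of U12-type introns from a genome sequence was not run, since no genome was used here. With 2 samples per genotype the intervals of the members' gene counts allow changes of up to 0.58 upward (Snrnp25) and 0.78 downward (Zrsr1) on the log2 scale.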

Other observations

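The SF3b proteins, which the U2 snRNP and the U11/U12 di-snRNP share, showed no call either. Of 7 tested in gene counts, 0 were called in edgeR and 0 had an unadjusted p under 0.05, with 4 above and 3 below 0, log2 changes from -0.26 to 0.29, a median of 0.10 beside 0.01 over all genes, and a smallest adjusted p of 0.556. In intron counts the 8 further minor spliceosome proteins lay above 0 in 7 and below 0 in 1, with a median of 0.18 beside 0.07 over all genes, and 0 were called in edgeR.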
